A study of Mus musculus with 12 samples.

Results

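RNA of colonic intestinal epithelial cells was measured for 10 genes of 2 families, chosen by symbol with earlier results of these data known. They were the aquaporins Aqp1, Aqp3, Aqp4, Aqp8 and Aqp11, and the carbonic anhydrases Car1, Car2, Car4, Car12 and Car13. All 10 symbols were found among the 46517 gene identifiers of the count files, and 9 of the 10 passed the filter on low counts that left 12522 genes for testing. Aqp3 did not pass it. The mice were C57BL/6, 7 to 9 weeks old, and were wild type (WT) or Nfkb2-/- (knockout, KO). Nfkb2 encodes p100, the precursor of the NF-kB subunit p52, and the labels name no promoter or cell type for its loss. Mice of each genotype received either nothing or, for 48 h, dextran sulfate sodium (DSS), a sulfated sugar polymer that damages the lining of the colon, at a dose not given in the labels. This made 4 groups of 3 samples, described as biological replicates, and the labels do not say whether a sample is 1 animal or a pool.

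Aquaporins form pores that let water, and in some members glycerol, ammonia or hydrogen peroxide, cross membranes. Carbonic anhydrases speed the interchange of carbon dioxide and water with bicarbonate and protons, and so feed the bicarbonate and proton exchangers of the cell surface. The colon takes up most of the water that reaches it, and its surface cells exchange luminal chloride and sodium for bicarbonate and protons made by these enzymes. Genes of both families are among the markers of mature colonocytes near the luminal surface.

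Total counts were 5595909 to 8117740 per sample, and 3 counts, taken as the floor of detection, corresponded to 0.356 to 0.530 CPM (read counts scaled to the size of the library), a limit that covers counting error only. Nfkb2 stood at 30.8 to 46.1 CPM in the 6 WT samples and at 11.7 to 19.6 CPM in the 6 KO samples (KO minus WT -1.31 on the log2 scale, exact two-sided permutation test p = 0.00217, the smallest that 924 rearrangements allow), so reads over the gene remained in KO. The library numbers in the labels run through all WT samples before all KO samples, so an effect of genotype and one of library order cannot be told apart. WT untreated replicate 3 stood apart from the other two WT untreated samples: its summed level of 27 surface colonocyte markers was 43500 CPM against 70810 and 64380, and its summed level of 16 crypt base and proliferation markers was 1441 CPM against 949.8 and 907.7. Of 10 epithelial defining markers none was at 0 in any group, and their summed level was 21670 to 30850 CPM over all samples. Single markers of this list did differ at the threshold given below. Cdx2 fell under DSS in WT (log2 -1.52) and in KO (-0.755), and Vil1 was lower in KO than in WT under DSS (-0.546). In each of these comparisons 1 of the 10 passed. As this is bulk RNA, fewer cells of a type and less RNA per cell cannot be told apart in any result below.

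Under DSS the genes that fell were Aqp8, Car1, Car4 and Car12 in WT and Aqp1, Aqp8, Car1 and Car4 in KO, by 1.57-fold to 6.69-fold, and no member rose in either genotype (edgeR quasi-likelihood test, Benjamini-Hochberg adjusted p under 0.05 over all genes tested). Of the 9 members tested, 4 were lower in each genotype, where 3.5% of all genes tested were called lower in WT (6.3% in either direction) and 2.04% in KO (3.92% in either direction). The median log2 change of the 9 was -0.94 in WT and -0.64 in KO, and that of all genes tested was 0.0063 and 0.015. In the untreated colon KO had higher Car2 and Car4 and lower Car1 and Car12 than WT, which is 4 of 9 members against 3.48% of all genes called (medians -0.19 and -0.0015). Under DSS Aqp8, Car2 and Car4 were higher in KO than in WT and no member was lower, 3 of 9 against 1.77% of all genes called higher and 3.11% called in either direction (medians 0.22 and 0.0027). The DSS change itself differed between genotypes for Car1 and Car12, 2 of 9, against 1.17% of all genes called with a positive difference and 1.7% called in either direction (medians 0.24 and -0.0066). Without WT untreated replicate 3, which stands apart, the counts of members were 6 for DSS in WT, 6 for genotype in the untreated state and 4 for the difference of DSS changes, among 972, 738 and 356 genes called. With only the groups compared 2 members passed for genotype in the untreated state, and without KO under DSS replicate 2 only 1 passed for genotype under DSS. Because the members were chosen with earlier results of these data known, their shares called are a description only. The plot of fold changes gives all 45 estimates.

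**Figure D1:**
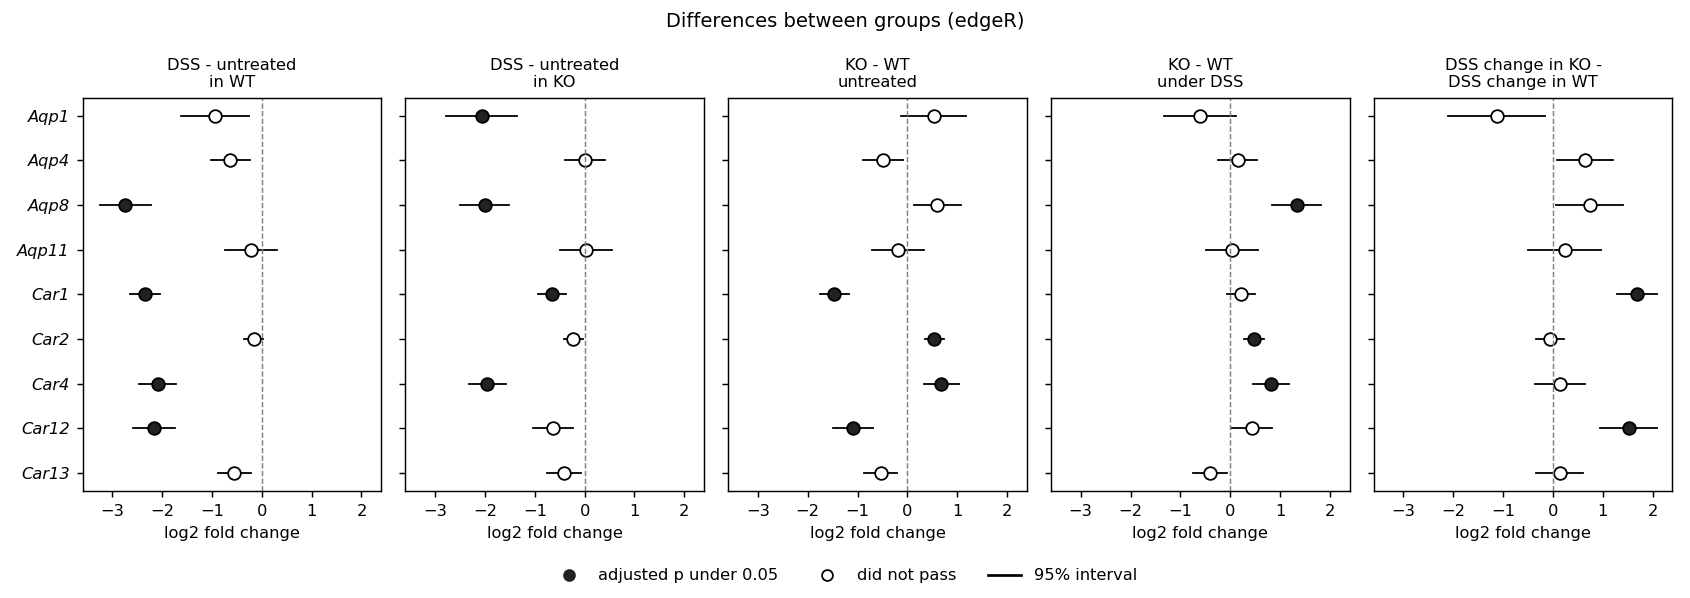
Log2 fold change (horizontal axis) of the 9 members tested, one panel per comparison; points are edgeR estimates, lines their 95% intervals, and filled points passed at an adjusted p under 0.05. Under DSS the filled points lie left of 0 in both genotypes, at -2.74 for Aqp8 in WT and -2.005 in KO, and in the last panel Car1 (1.69) and Car12 (1.52) alone are filled.

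Aqp8, a water channel of surface colonocytes that also passes ammonia and hydrogen peroxide (chromosome 7 from 123462291 to 123468004, plus strand, GRCm38), and Car4, a carbonic anhydrase held on the outer face of the membrane by a lipid anchor (chromosome 11 from 84957786 to 84966044, plus strand), varied together over the 12 samples. Each was the other's closest match among 8860 genes compared, with a Pearson correlation of log2 CPM of 0.99 over the 12 samples of 4 groups, given as a description. Because these members moved together, their promoter windows are shown, from RefSeq for GRCm38.p6, covering 250 bases before to 50 bases after the annotated start. Windows were held for 6 of the 10 members. Capitals mark matches, on either strand, to any of 5 short motifs. The first is TATAAA, the sequence bound by the basal factor TBP. The second is ACGTG, the core of the hypoxia response element. The third is the E-box CACGTG, which includes the second. The fourth is TTTAT, the core bound by CDX factors, whose reverse complement is part of the first. The fifth is AGATAA, bound by GATA factors. The windows are chr7:123462044-123462343 and chr11:84957504-84957803, both on the plus strand.
Aqp8: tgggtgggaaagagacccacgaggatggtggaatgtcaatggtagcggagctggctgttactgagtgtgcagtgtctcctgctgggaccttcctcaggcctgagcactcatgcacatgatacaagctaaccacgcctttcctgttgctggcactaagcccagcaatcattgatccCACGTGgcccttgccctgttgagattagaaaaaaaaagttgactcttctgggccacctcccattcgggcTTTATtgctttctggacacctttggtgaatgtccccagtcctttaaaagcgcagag
Car4: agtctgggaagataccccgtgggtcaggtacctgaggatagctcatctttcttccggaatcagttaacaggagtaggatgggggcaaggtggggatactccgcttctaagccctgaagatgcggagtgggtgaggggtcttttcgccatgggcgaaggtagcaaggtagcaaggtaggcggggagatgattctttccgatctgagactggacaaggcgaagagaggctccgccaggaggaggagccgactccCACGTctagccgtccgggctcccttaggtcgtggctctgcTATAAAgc
In the Aqp8 window CACGTG begins 75 bases before the start, and TTTAT begins 6 bases before it. In the Car4 window the reverse complement of ACGTG begins at base 3 after the start and TATAAA at base 43. These positions count from the RefSeq start, which for Car4 lies upstream of the GENCODE gene start given above (84957786). Counted from that gene start they would differ. Among 32851 windows of the same length, 13.6% hold TATAAA, 19.6% ACGTG, 7.2% CACGTG, 40.0% TTTAT and 11.2% AGATAA, so the pair shares letters found in many promoters. The windows of Aqp1, Aqp11 and Car12 held none of the 5 motifs, and that of Aqp3 held TATAAA beginning 29 bases before its start.

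Aqp8 fell under DSS in both genotypes, and the level left under DSS was higher in KO. In replicates 1 to 3 it stood at 407, 356 and 179 CPM in WT untreated and at 41.5, 58.3 and 40.8 CPM in WT under DSS. In KO it stood at 491, 472 and 465 CPM untreated and at 118, 122 and 116 CPM under DSS. The 4 groups did not overlap, in the order WT under DSS, KO under DSS, WT untreated, KO untreated. The fall was 6.69-fold in WT (log2 -2.74, SE 0.24, adjusted p 4.30e-06) and 4.01-fold in KO (log2 -2.005, SE 0.23, adjusted p 0.000181). Under DSS the level in KO was 2.53 times that in WT (log2 1.34, SE 0.23, adjusted p 0.00517). Without treatment the KO level was 0.60 higher on the log2 scale, with a 95% interval of 0.13 to 1.07, and did not pass (adjusted p 0.177); without WT untreated replicate 3 it was 0.32 (0.203), and with no filter on low counts it passed (0.61, 0.000286). The difference between the DSS changes was 0.74 (interval 0.060 to 1.41) and did not pass (adjusted p 0.412), but it passed without WT untreated replicate 3 (1.02, adjusted p 0.0060) and with no filter (0.72, 0.0113), and without WT untreated replicate 1 it was 0.52 (0.58).

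Car4 showed the same order of groups, again with no overlap. Its levels were 643, 641 and 380.3 CPM in WT untreated and 123, 141 and 127 CPM in WT under DSS. In KO they were 875, 921.5 and 870.1 CPM untreated and 202, 265 and 222 CPM under DSS. WT untreated replicate 3 was the lowest untreated sample for both Aqp8 and Car4. Car4 fell 4.26-fold in WT (log2 -2.09, SE 0.17, adjusted p 2.49e-06) and 3.87-fold in KO (log2 -1.95, SE 0.17, adjusted p 2.09e-05), and the difference between these changes was 0.14 (interval -0.36 to 0.64, adjusted p 0.933). KO exceeded WT 1.60-fold untreated (log2 0.68, SE 0.16, adjusted p 0.0346) and 1.76-fold under DSS (log2 0.82, SE 0.17, adjusted p 0.0146). The untreated call did not hold in a fit of only the 2 groups compared (adjusted p 0.128) or without WT under DSS replicate 1 (0.0528), any one of KO untreated replicates 1 (0.0881), 2 (0.106) and 3 (0.0951), or KO under DSS replicate 3 (0.0503). The call under DSS was lost without WT under DSS replicate 1 (0.0834) or 3 (0.0667) or KO under DSS replicate 2 (0.0926), with estimates of 0.70 to 0.80.

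**Figure D2:**
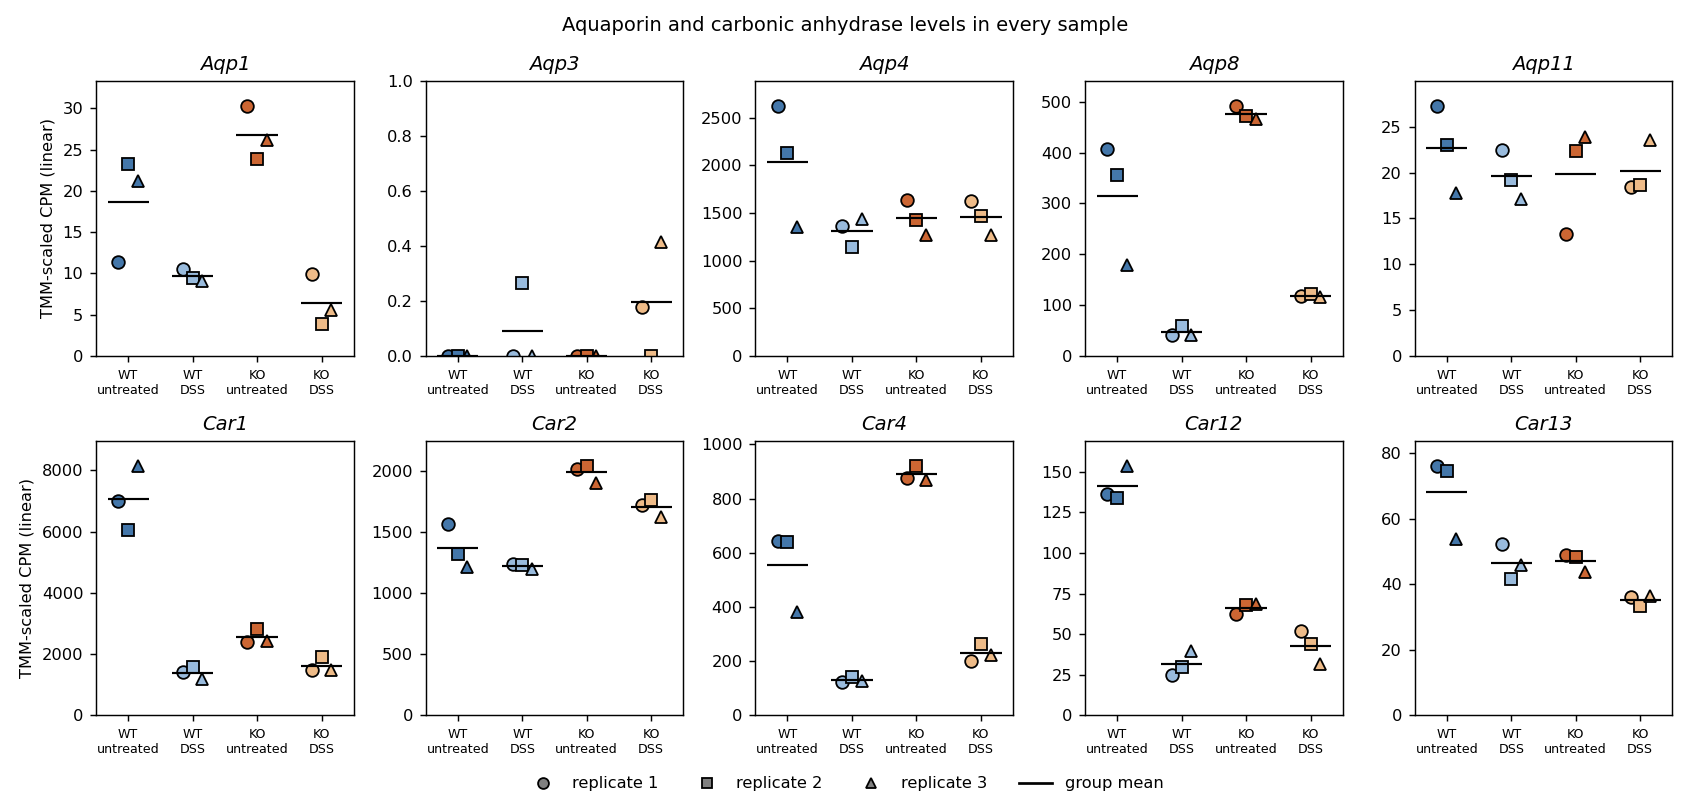
TMM-scaled CPM (linear vertical axes, each from 0) of the 10 members in each sample, by group; marker shapes are replicates 1 to 3 and lines are group means. Aqp8 and Car4 keep 4 separate levels, while for Car1 and Car12 the WT untreated samples lie far above the other 3 groups.

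Car1, a cytosolic carbonic anhydrase of low activity that is abundant in colonocytes and red blood cells (chromosome 3 from 14766216 to 14808368, minus strand), was the member with the highest level in WT untreated samples. The pseudogene Gm16399 lies within its span, shares 0 exon bases with it and had 1 count over the 12 samples. It stood there at 6994, 6062 and 8149 CPM, and in WT under DSS at 1432, 1578 and 1177 CPM. In KO it stood at 2403, 2809 and 2444 CPM untreated and at 1495, 1898 and 1484 CPM under DSS. WT untreated lay above all other groups, KO untreated lay above both DSS groups, and the DSS groups overlapped. Car1 fell 5.07-fold under DSS in WT (log2 -2.34, SE 0.14, adjusted p 9.89e-08) and 1.57-fold in KO (log2 -0.65, SE 0.13, adjusted p 0.0127). In the untreated state it was 2.77-fold lower in KO than in WT (log2 -1.47, SE 0.14, adjusted p 1.79e-05), and under DSS the difference was 0.22 (interval -0.063 to 0.50, adjusted p 0.502). The DSS change in KO minus that in WT was 1.69 on the log2 scale (SE 0.19, adjusted p 0.000199). The fall in KO lost its call without KO untreated replicate 2 (log2 -0.58, adjusted p 0.0631), KO under DSS replicate 1 (-0.59, 0.0619) or KO under DSS replicate 3 (-0.59, 0.064).

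Car12, a carbonic anhydrase that spans the membrane with its catalytic domain outside the cell (chromosome 9 from 66713686 to 66766845, plus strand), had the same order of groups as Car1 at a lower level. WT samples stood at 136, 134 and 154 CPM untreated and at 24.9, 30 and 39.8 CPM under DSS. KO samples stood at 62.3, 67.9 and 68.4 CPM untreated and at 52.2, 44.2 and 31.5 CPM under DSS. As for Car1, WT untreated and then KO untreated were highest and the DSS groups overlapped. The fall was 4.48-fold in WT (log2 -2.16, SE 0.19, adjusted p 5.43e-06), while in KO the change of -0.64 (SE 0.19) did not pass (adjusted p 0.0802). Untreated KO was 2.13-fold lower than WT (log2 -1.09, SE 0.19, adjusted p 0.00386), the difference under DSS was 0.43 (adjusted p 0.314), and the DSS changes differed by 1.52 (SE 0.27, adjusted p 0.0069). The change in KO passed with DESeq2 in place of edgeR (adjusted p 0.0241) and with no filter on low counts (-0.65, 0.00992).

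The correlation of Car1 with Car12 over the 12 samples was 0.94, and that of Car1 with Car2 was -0.058. The genes closest in pattern to Car1 were Cyp2c55 and Higd1a (0.98 each) and Abhd6 (0.97), and those closest to Car12 were Ahcyl2 (0.98), Higd1a and Prom1 (0.96 each). For Aqp8 the next after Car4 were Pmp22 (0.97) and Guca2a (0.96), and for Car4 the next after Aqp8 were Ces2c and Pmp22 (0.97 each). Those closest to Car2 were Gcnt3 (0.96), Tspan3 (0.95) and Aadac (0.94), and those closest to Car13 were Ptprh (0.97) and the sterol synthesis genes Hmgcs1 (0.97) and Sqle (0.96). These are correlations across samples of 4 groups from shared libraries and describe likeness only. In the plot of DSS changes by genotype, Car1 and Car12 lie well above the line of equal change, and Car4 lies near it.

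**Figure D3:**
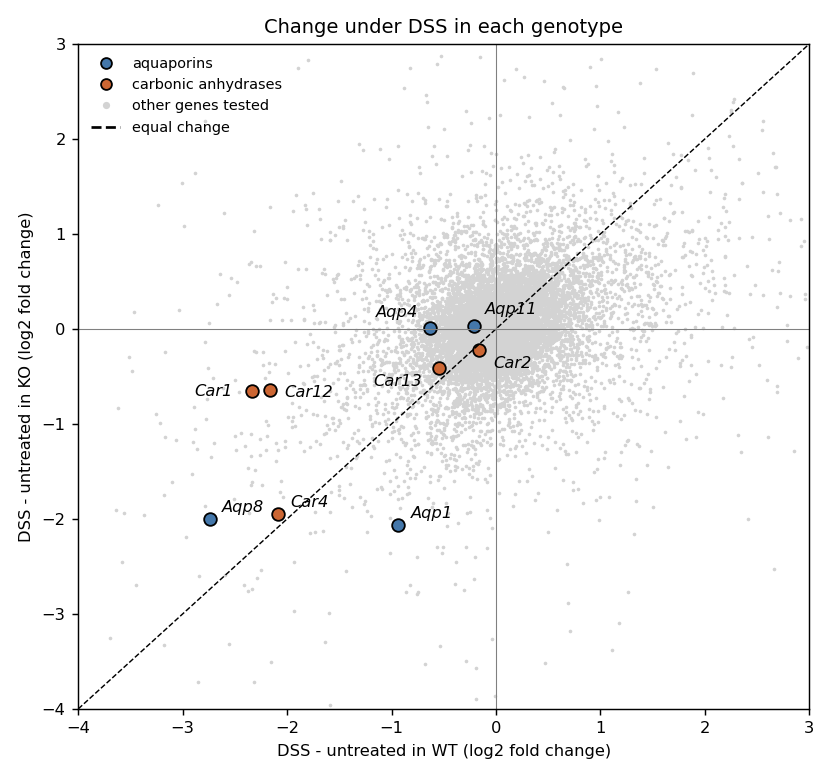
Log2 change under DSS in WT (horizontal) against that in KO (vertical) for the members and all other genes tested (grey); the dashed line marks equal change, both comparisons use separate samples, and 104 genes lie outside the axes. Car1 (-2.34, -0.65) and Car12 (-2.16, -0.64) sit together above the line, and Car4 (-2.09, -1.95) sits close to it.

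Car2, the cytosolic carbonic anhydrase of high activity (chromosome 3 from 14886273 to 14900770, plus strand), differed by genotype. WT samples stood at 1568, 1322 and 1214 CPM untreated and at 1237, 1230 and 1199 CPM under DSS. KO samples stood at 2016, 2045 and 1905 CPM untreated and at 1725, 1761 and 1625 CPM under DSS. Every KO sample lay above every WT sample. KO was 1.45-fold higher untreated (log2 0.54, SE 0.091, adjusted p 0.00362) and 1.39-fold higher under DSS (log2 0.48, SE 0.091, adjusted p 0.00913). The DSS change was -0.16 in WT (interval -0.36 to 0.031, adjusted p 0.397) and -0.22 in KO (adjusted p 0.230), and the difference between them was -0.060 (interval -0.33 to 0.21, adjusted p 0.948). The untreated call was lost in a fit of only those 2 groups (adjusted p 0.0541), and the call under DSS without KO under DSS replicate 2 (0.0534).

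Car13, another cytosolic carbonic anhydrase (chromosome 3 from 14641727 to 14663002, plus strand), lies in the same cluster of carbonic anhydrase genes on chromosome 3 as Car1, Car2 and Car3. Its levels were 76.2, 74.6 and 53.8 CPM in WT untreated, 52.2, 41.7 and 45.8 CPM in WT under DSS, 48.9, 48.5 and 43.8 CPM in KO untreated and 36.2, 33.5 and 36.3 CPM in KO under DSS. WT untreated lay above the others and KO under DSS below them, and the middle pair overlapped. None of the differences passed: the DSS change was -0.55 in WT (SE 0.16, adjusted p 0.0524) and -0.41 in KO (adjusted p 0.199), and KO minus WT was -0.54 untreated (adjusted p 0.0799) and -0.40 under DSS (adjusted p 0.241). Without WT untreated replicate 3 the DSS change in WT was -0.70 (adjusted p 0.0075) and the untreated genotype difference was -0.68 (0.0129), and both passed, as they did with DESeq2 (0.0154 and 0.0224). The DSS change of Car13 in WT also passed with RLE scaling (adjusted p 0.0489) and with at least 10 counts in every sample (0.0464). Car3 had 36 counts in the 12 samples together and was not tested.

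Aqp4, a water channel known from the brain's astrocytes and from the basolateral side of surface colonocytes (chromosome 18 from 15389496 to 15410982, minus strand), was the most abundant aquaporin in CPM. The antisense gene AC133525.2 overlaps its span with 0 shared exon bases and was not analysed here. WT samples stood at 2624, 2133 and 1353 CPM untreated and at 1363, 1143 and 1439 CPM under DSS. KO samples stood at 1639, 1429 and 1265 CPM untreated and at 1628, 1473 and 1271 CPM under DSS. WT untreated replicates 1 and 2 lay above every other sample, and replicate 3 lay among the other groups, so all neighbouring groups overlapped. No comparison passed: the DSS change was -0.63 in WT (SE 0.19, adjusted p 0.0621) and 0.013 in KO (interval -0.38 to 0.41, adjusted p 0.985), and KO minus WT was -0.50 untreated (adjusted p 0.188) and 0.15 under DSS (interval -0.25 to 0.55). Without WT untreated replicate 3 the change in WT was -0.85 (adjusted p 0.00101), the untreated genotype difference -0.72 (0.00635) and the difference of DSS changes 0.87 (0.0173), and all 3 passed; without WT untreated replicate 1 they were -0.41 (0.228), -0.29 (0.475) and 0.43 (0.524). The change in WT also passed with DESeq2 (-0.64, adjusted p 0.0187), with no filter on low counts (-0.63, 1.35e-08) and with the replicate block (-0.59, 0.0498), and the other pair with no filter (-0.48, 8.96e-05, and 0.63, 0.000721). Enteric glia could also carry Aqp4, and of 6 glia markers Sox10 and Fabp7 were at 0 in every sample and the summed level was 0 to 1.93 CPM. The genes closest to Aqp4 in pattern were Mtm1, 4833439L19Rik and Myo19 (0.93 each).

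Aqp1, a water channel of endothelium, red blood cells and some epithelia (chromosome 6 from 55336432 to 55348555, plus strand), fell under DSS in KO. It stood at 11.4, 23.3 and 21.2 CPM in WT untreated and at 10.5, 9.47 and 9.13 CPM in WT under DSS. In KO it stood at 30.3, 23.9 and 26.1 CPM untreated and at 9.9, 3.86 and 5.54 CPM under DSS. Both untreated groups lay above both DSS groups, KO untreated lay above WT untreated, and the DSS groups overlapped. The fall in KO was 4.20-fold (log2 -2.07, SE 0.33, adjusted p 0.00256). In WT the change was -0.94 (SE 0.32, adjusted p 0.116). It passed without WT untreated replicate 1 (-1.20, adjusted p 0.0333) and with no filter on low counts (-0.94, 0.0369). The difference between the DSS changes was -1.13 and did not pass (adjusted p 0.363). KO minus WT was 0.53 untreated (adjusted p 0.468) and -0.60 under DSS (adjusted p 0.447).

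Red blood cells and endothelium can also carry Aqp1 or Car1, and markers of both were summed. Of 9 red blood cell markers the globin genes Hbb-bt and Hba-a2 and the membrane protein gene Epb42 were at 0 in every sample, Hba-a1 reached at most 0.554 CPM and Alas2, the highest, 3.86 CPM, and the summed level was 1.48 to 4.17 CPM in WT untreated, 0.456 to 2.28 in WT under DSS, 0.951 to 4.31 in KO untreated and 0.593 to 2.91 in KO under DSS. Of 10 endothelial markers Kdr and Emcn were at 0 in every sample and Cdh5 reached at most 0.139 CPM, while Pecam1 reached 4.42 CPM and Vwf 4.27 CPM. Their summed level was 1.24 to 7.38 CPM in WT untreated, 1.87 to 5.77 in WT under DSS, 2.69 to 7.84 in KO untreated and 6.23 to 9.72 in KO under DSS, where Aqp1 was lowest on average and of a like level. The part of endothelial RNA in the level of Aqp1 was not tested. Of 10 stromal and muscle markers Lum and Pdgfra were at 0 in every sample and the summed level was 3.09 to 18.4 CPM over all samples. The genes nearest to Aqp1 in pattern were Gmps, an enzyme of guanine nucleotide synthesis (correlation 0.97), Kif11, a mitotic kinesin (0.92), and Usp1 (0.91).

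Crypt base and proliferation markers also fell under DSS in KO. Of 16 such genes tested, 10 fell under DSS in KO and none rose, among them the stem cell marker Smoc2 (-1.99) and the replication licensing genes Mcm5 (-1.49) and Mcm2 (-1.36), and 1 fell in WT. Of all genes tested, 2.04% were called lower in KO and 3.5% in WT. The medians of the 16 were -0.845 in KO and -0.49 in WT, and the DSS change differed between genotypes for 1 gene, Mcm5 (-1.26). Under DSS Sox9 was higher (0.83) and Mcm5 lower (-1.07) in KO than in WT. The summed level of the list was 1250 to 1371 CPM in KO untreated and 792.5 to 857.8 CPM in KO under DSS, and 907.7 to 1441 and 785.4 to 842.2 CPM in the WT groups. The part of this in the Aqp1 result was not tested.

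Aqp11, an aquaporin of intracellular membranes (chromosome 7 from 97724006 to 97738289, minus strand), did not pass in any comparison. Its level was 17.8 to 27.3 CPM in WT untreated, 17.1 to 22.5 in WT under DSS, 13.3 to 23.9 in KO untreated and 18.4 to 23.6 in KO under DSS, and all groups overlapped. The DSS change was -0.21 in WT (interval -0.73 to 0.31, adjusted p 0.761) and 0.026 in KO (adjusted p 0.979). Its nearest genes in pattern were Gtf2b (0.94), Zfp768 (0.93) and Gabarapl2 (0.89). Aqp3, an aquaporin that also passes glycerol (chromosome 4 from 41092722 to 41098183, minus strand), had 6 counts in all: 2 in WT under DSS replicate 2, 1 in KO under DSS replicate 1 and 3 in KO under DSS replicate 3. It was at or under the floor of 3 counts in every sample, so no difference was detectable at this depth.

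Compared per length of exon, the carbonic anhydrases were led by Car1 and the aquaporins by Aqp4 or Aqp8. Mean levels in WT untreated were 5664 CPM per kb of exon for Car1, 565 for Car2, 327 for Aqp4, 282 for Car4 and 199 for Aqp8, and under 30 for Car13, Car12, Aqp1 and Aqp11. All 16 carbonic anhydrase genes together fell from 6617 ± 746 CPM per kb in WT untreated to 1756 ± 173 under DSS, and stood at 3390 ± 215 in KO untreated and 2180 ± 226 in KO under DSS (mean ± SD of 3 samples, described without a test). Car1 made up 85.4 ± 3.27% of that sum in WT untreated and 63.5 ± 3.13%, 60.3 ± 1.53% and 59.6 ± 2.42% in WT under DSS, KO untreated and KO under DSS. Car4 made up 13.4 ± 0.404% in KO untreated and 3.79 to 5.35% on average in the other 3 groups. In the aquaporin sum Aqp8 was the largest part only in KO untreated, with 55.3 ± 2.36% against 42.4 ± 2.51% for Aqp4, and in the WT untreated group these shares were 36.6 ± 2.95% and 61.4 ± 2.34%. Under DSS the share of Aqp8 was 12.2 ± 3.56% in WT and 24.0 ± 2.11% in KO. By the length of the longest transcript in place of all exons, Car4 in WT untreated stood at 442 CPM per kb, above Aqp4 at 403, and Car2 at 765, Aqp8 at 211, Car12 at 38.0 and Aqp11 at 3.91.

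**Figure D4:**
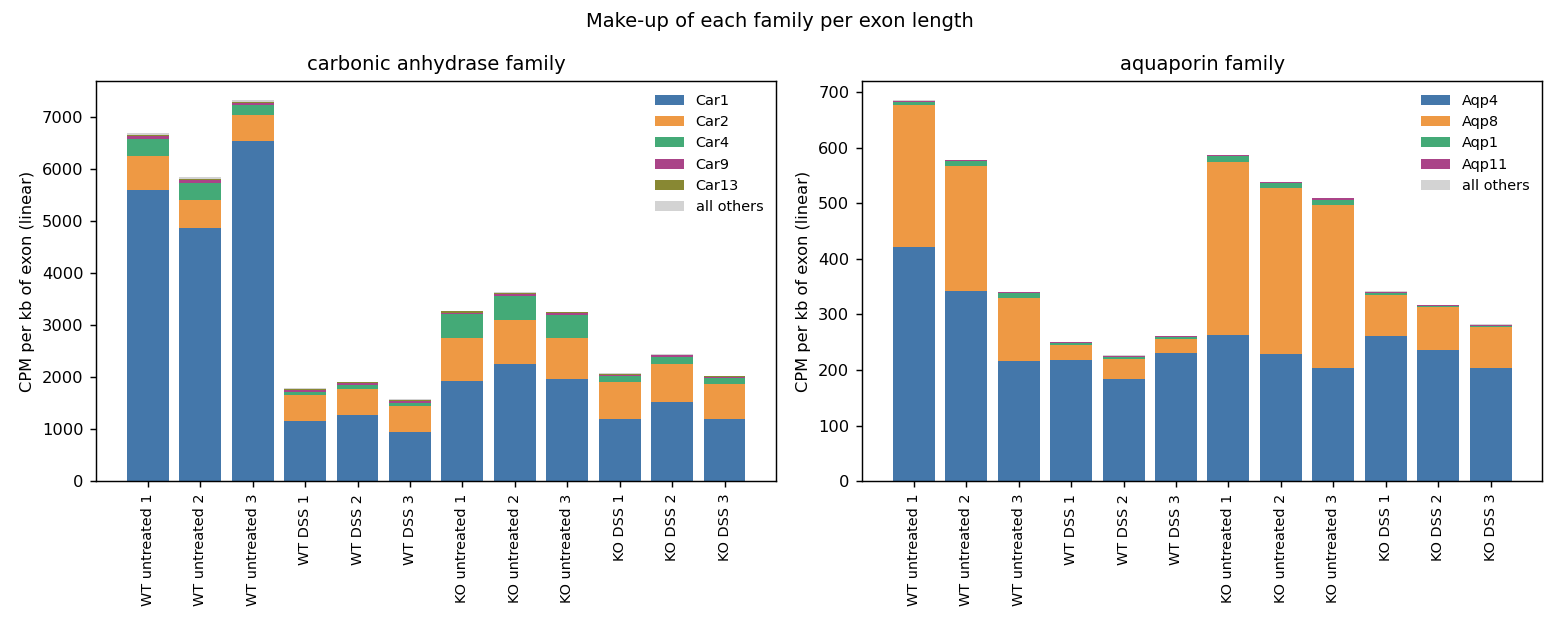
Stacked bars of CPM per kb of exon (linear axes from 0) for each family in each sample, with the leading genes coloured and all other genes of the family in grey. Car1 makes up most of the WT untreated bars, and the aquaporin bars of WT untreated replicate 3 (340.3) and replicate 1 (686) differ although both hold more Aqp4 than Aqp8.

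Of the other genes of both families, Car9 had a level above that of the member Car13 in every group, and Car8 was the next; the rest were low. None of 7 other aquaporins passed the filter; Mip, Aqp2, Aqp5 and Aqp6 were at 0 in every sample, and Aqp12 had the most with 17 counts over the 12 samples. Of 11 other carbonic anhydrases 4 were tested, and Car5a and Car6 were at 0 in every sample. Car9, a membrane carbonic anhydrase induced by low oxygen, stood at 108, 117 and 107 CPM in WT untreated and at 77.3, 84.1 and 82.8 CPM in WT under DSS, a 1.36-fold fall (log2 -0.44, SE 0.10, adjusted p 0.0183). Its KO levels were 83.7, 88 and 84.6 CPM untreated and 71.3, 72.1 and 67.8 CPM under DSS, and no other comparison of Car9 passed (KO minus WT untreated -0.37, adjusted p 0.0654). Car8, a relative that lacks catalytic activity, stood at 39.5, 29.4 and 41.3 CPM in WT untreated and 16.2, 16.8 and 22.1 CPM in KO untreated, and was 2.00-fold lower in KO (log2 -0.998, SE 0.22, adjusted p 0.0202). Car5b and Car7, with 78 and 91 counts in all, passed in no comparison, and Car3, Car10, Car14 and Car15, with 36, 10, 10 and 13 counts, were not tested.

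The exchangers and channels that work with these enzymes moved in both directions. Of 23 bicarbonate, chloride and proton transport genes tested, 8 fell and 2 rose under DSS in WT (median -0.19), and 6 fell and 2 rose in KO (median -0.10). The sodium-proton exchanger Slc9a3 fell by 3.59 in WT and by 2.45 in KO on the log2 scale, and the chloride-bicarbonate exchanger Slc26a3 fell by 1.51 and by 1.69. In KO the proton-potassium pump Atp12a fell by 1.41 and Clca1, a goblet cell secreted protein, rose by 1.29. In WT Clca4a fell by 3.17 and Clca4b rose by 2.71; these are near relatives between which reads could be split.

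Between genotypes, 3 of these 23 genes were higher and 2 lower in KO untreated (median -0.12), and 5 were higher and 1 lower in KO under DSS (median 0.088). The anion channel Best2 was higher by 2.06 on the log2 scale in KO untreated and by 0.68 in KO under DSS, and Atp12a was higher by 1.12 in KO untreated. The anion exchanger Slc4a2 was lower in KO untreated (-0.63), as was Clca1 (-1.28), while Clca1 was higher in KO under DSS (1.06). For 4 genes the DSS change was more positive in KO than in WT and for 3 it was more negative, with the largest values for Clca1 (2.34), Clca4a (2.03), Clca4b (-2.002) and Best2 (-1.38).

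Among 20 sodium and potassium absorption genes and their hormone regulators, 4 fell under DSS in WT and 3 in KO and none rose (medians -0.16 and -0.30). The kinase Sgk1, which activates the epithelial sodium channel, fell by 2.31 in WT and by 1.49 in KO, a difference of 0.82 that passed (adjusted p 0.0156), and its relative Sgk2 fell by 1.40 and by 1.64. In KO untreated, Kcnn4, a potassium channel (0.63), and Hsd11b2, which inactivates glucocorticoids (0.62), were higher and Tsc22d3, a glucocorticoid-induced gene (-0.52), was lower than in WT. Under DSS 1 gene of the 20, Sgk1, was higher in KO (0.48), and none was lower.

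Surface colonocyte markers, a list that holds no member, also fell under DSS, more of them in WT than in KO. The list shares Slc9a3 and Slc26a3 with the bicarbonate, chloride and proton transport genes and Vil1 with the epithelial defining markers. Of 26 surface markers tested, 18 fell and 1 rose under DSS in WT (median -0.85), and 9 fell and 1 rose in KO (median -0.40). In KO untreated 11 were lower and 1 higher than in WT (median -0.42), under DSS 5 were higher and 1 lower (median 0.014), and 8 had a more positive and 1 a more negative DSS change in KO (median 0.44). Examples under DSS in WT were Tmigd1 (-3.64), Alpi, an intestinal alkaline phosphatase (-3.06), and Emp1 (-2.86), and in KO Tmigd1 (-1.91) and Krt20, a keratin of surface cells (-1.34). In KO untreated Slc37a2 was higher by 2.29 and Gsdmc2 lower by a log2 difference of -2.14, the latter one of several closely related gasdermin C genes. The summed level was 43500 to 70810 CPM in WT untreated, 32970 to 34580 in WT under DSS, 34470 to 39520 in KO untreated and 31160 to 35160 in KO under DSS, so the KO groups overlapped. Their part in the member results was not tested.

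Leukocyte markers differed between groups as well. Of 14 tested, 6 rose under DSS in WT and 1 in KO, and 6 were higher in KO untreated and 4 in KO under DSS, with none lower in any of these comparisons. The pan-leukocyte gene Ptprc was higher in KO by 1.57 untreated and by 1.38 under DSS. Coro1a was higher in KO by 2.76 untreated and by 1.73 under DSS, and Laptm5 by 1.70 and by 1.67. Cd74 was higher in KO by 0.68 untreated. In WT, Coro1a (1.81) and Cd74 (0.56) rose under DSS. The summed level was 1251 to 1735 CPM in WT untreated, 1948 to 2452 in WT under DSS, 2307 to 2406 in KO untreated and 2137 to 2323 in KO under DSS, so WT untreated was below the other 3 groups, the reverse of Car1 and Car12. Most of this sum was Cd74, with a mean log2 CPM of 10.9 over all samples against 4.28 for Ptprc, so the sum mainly followed that 1 gene. The part of leukocyte RNA in the Car1 and Car12 levels was not tested. The plot of marker sums shows these lists beside each other.

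**Figure D5:**
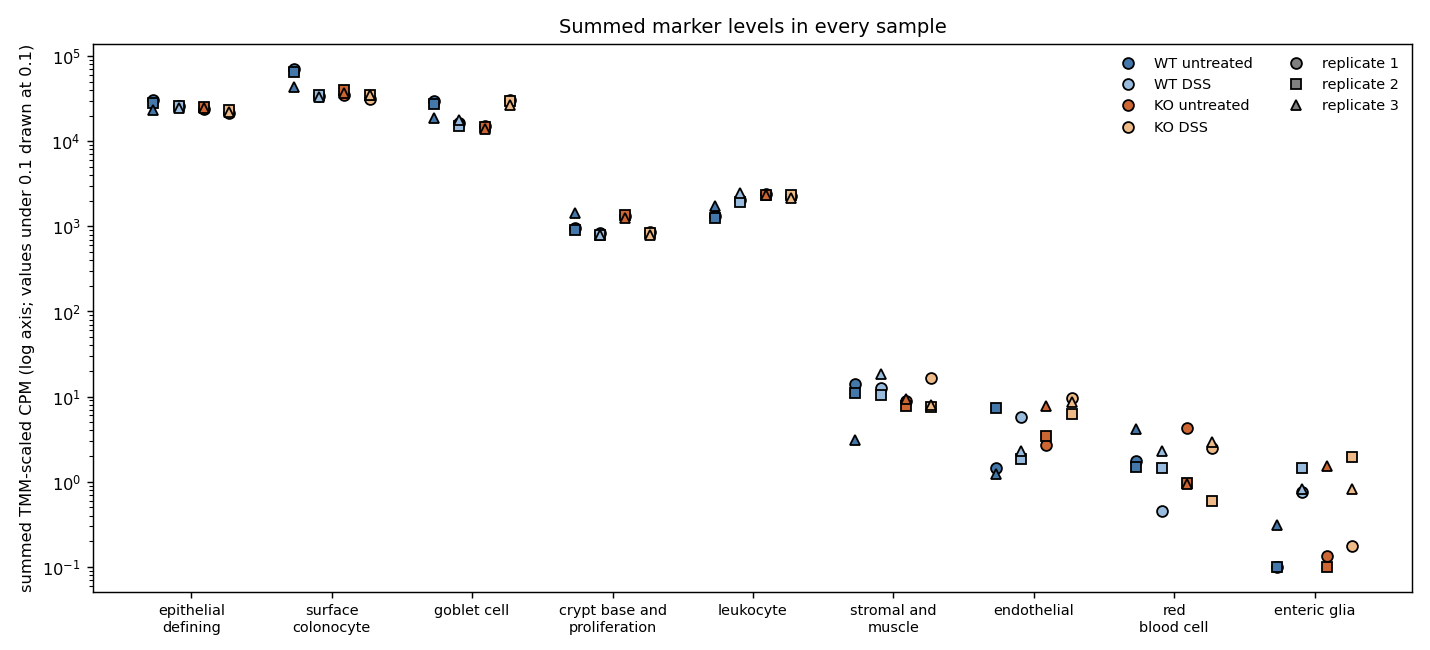
Summed TMM-scaled CPM (log axis) of each marker list in every sample; colours are groups, shapes are replicates 1 to 3, and sums under 0.1 are drawn at 0.1. Stromal, endothelial, red blood cell and glia sums stay under 20 CPM, epithelial sums are 21670 CPM or more, and WT untreated replicate 3 is the lowest of its group for surface markers and the highest for crypt markers.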

How the data were processed

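RNA-seq counts were used for 12 samples of mouse colonic epithelial cells, detached with 30 mM EDTA of which about 90% typically carried EpCAM and lacked CD45.2 per the labels' protocols. Libraries came from 2 ng of RNA (RNA integrity numbers 7.2 to 9.2, median 8.8) by a SMART-seq2 protocol with Nextera XT, which has no molecular identifiers and keeps no strand, so reads of overlapping genes on opposite strands cannot be told apart. The deposited values are whole-number read counts per gene with no sign in the values that the authors scaled them. STAR 2.5.2b, featureCounts 1.5.0 and the builds GRCm38 and mm10 are named in the submitters' processing notes. The annotation and counting settings are not given in the sources used here.

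Symbols and coordinates came from GENCODE M21 (GRCm38) by identifier without version: 46005 of 46517 matched. Genes were kept by filterByExpr (12522 genes, 99.8% of counts), scaled by TMM and tested in edgeR 4.0.16 (R 4.3.3) by the two-sided quasi-likelihood F test, with 1 coefficient per group over all 12 samples and a common biological coefficient of variation of 0.227. The 5 contrasts were DSS against untreated in each genotype, KO against WT in each treatment, and the interaction. A gene passed at a Benjamini-Hochberg adjusted p under 0.05. CPM are TMM-scaled, and log2 CPM used a prior count of 2. The SE was derived from the test, as the absolute log2 fold change divided by the square root of F. The 95% intervals were built from this SE and the t distribution. The procedure was also run on simulated data. These gave every gene the same biological coefficient of variation and held no outlying sample, so the run does not show how the procedure performs on the present samples. Each replicate counted as 1 sample, and p-values measure the spread between these samples. No pair of replicates agreed within sampling noise (chi-square per degree of freedom 6.51 to 27). This cannot show that they came from different animals, as library preparation also adds spread beyond counting noise.

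The members and lists were chosen with earlier results of these data known. Besides the members, genes were named from those that a rule selected: up to 4 per list and contrast with the largest absolute log2 change among those that passed and averaged at least 3 in log2 CPM, other family members with at least 10 counts in all, and the 3 genes of highest correlation with each member. Not every gene so selected is named, so those named for a list are not always its largest changes. Genes at 0 and markers of other cell types were also named, after their values were seen. Lists were counted, not tested.

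Titles number the samples 1 to 3 in each group, and within a genotype same-numbered untreated and DSS samples have neighbouring library numbers; the labels do not say that either marks a shared litter, batch or day. Deviations of same-numbered samples correlated at 0.20, 0.11 and 0.13 for DSS in KO and at 0.014, 0.12 and 0.13 for DSS in WT. Only the KO samples passed a rule of over 0.1 in every pair. Between genotypes, same-numbered untreated samples correlated at -0.17, -0.18 and -0.053. Sizes like these thus also arose between genotypes, so the rule does not establish that the KO samples are paired. Mean correlations were -0.13, -0.046 and -0.020 in the other contrasts. Alternatives were RLE scaling, DESeq2 1.42.0, no filter, at least 10 counts in every sample, only the groups compared, the replicate block and each sample left out. The block gave each replicate number a term shared by both genotypes, so it did not model pairs within a genotype.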

Additional observations from a re-analysis of the deposited data

Results flagged for a closer look

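The DSS change differed between genotypes for 2 members by the interaction term of the edgeR fit. For Car1 the change in KO minus that in WT was 1.69 on the log2 scale (SE 0.19, adjusted p 0.000199), with 3 of 3 WT samples under DSS below all WT untreated samples and 3 of 3 KO samples under DSS below all KO untreated samples. For Car12 it was 1.52 (SE 0.27, adjusted p 0.0069), with the same separation in each genotype. Over 17 alternatives the adjusted p stayed at or under 0.00127 for Car1 and 0.0259 for Car12. In both genes the genotypes differed before DSS and overlapped under it.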

How the results depend on the processing

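Over 45 fold changes of members (9 genes in 5 contrasts) and 801 values under alternatives, 766 kept their side of the threshold, 21 newly passed and 14 no longer passed. No called value changed sign; 9 of the 766, uncalled values near 0 of Aqp4, Aqp11 and Car2, did. The falls of Aqp8, Car1, Car4 and Car12 in WT and of Aqp1, Aqp8 and Car4 in KO, Aqp8 in KO under DSS, and Car1 and Car12 in KO untreated and in the interaction passed under all alternatives run. Counts of genes called (789, 491, 436, 390 and 213 for DSS in WT, DSS in KO, KO against WT untreated and under DSS, and the interaction) moved more. With DESeq2 they were 800 for DSS in KO, 790, 661 and 360 for the last 3. With no filter on low counts they were 776 for DSS in KO, 703, 642 and 356, and 4 members passed the interaction. With only the groups compared, 453 genes passed for DSS in WT and 161 for KO against WT untreated, where 2 members passed. Leaving out 1 sample gave 503 to 972, 237 to 713, 213 to 738, 160 to 572 and 154 to 356 genes, the highest each time without WT untreated replicate 3, and 4 to 6, 3 to 4, 3 to 6, 1 to 3 and 2 to 4 members, the fewest for KO against WT under DSS without KO under DSS replicate 2. The cause was not tested. With the replicate block the gene counts were 695, 409, 345, 290 and 186, and Aqp4 passed for DSS in WT (-0.59, adjusted p 0.0498); it changed no other member's call. Per length of the longest transcript, levels over all groups moved beyond the spread for 5 of 10 members (Aqp4, Aqp11, Car2, Car4 and Car12), up to 19.0 in place of 9.27 CPM per kb for Car12. Depth limits Aqp3, Car5b and Car7, where a few counts separate the samples.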

Other observations

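Of 10 goblet cell markers tested, 1 fell under DSS in WT, Clca1 (-1.05), which the bicarbonate and chloride list also holds, and 3 rose in KO, Clca1 (1.29), Fcgbp, a mucus protein (0.94), and Muc2, the main gel-forming mucin of the colon (0.70). In KO untreated Muc2 (-0.42) and Clca1 (-1.28) were lower and Atoh1, the transcription factor of secretory cells (0.68), was higher than in WT. Under DSS 4 of 10 were higher in KO, and the DSS change of Muc2 (0.84) and Clca1 (2.34) was more positive in KO.

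Of 14 hypoxia-inducible genes tested, which include Car9, Pdk1 rose (0.82) and Ndrg1 (-0.68) and Car9 (-0.44) fell under DSS in WT, and none passed under DSS in KO. Ndrg1 was lower in KO untreated (-0.61). Of 10 posterior Hox genes tested, Hoxb13, which marks the distal colon, rose under DSS in WT (0.65) and was higher in KO untreated (0.61), and its DSS change was more negative in KO (-0.64). The summed level of the 13 listed was 378 to 408 CPM in WT untreated and 493 to 560.3 CPM in the other groups. Hoxb13, with a mean log2 CPM of 8.30, made up most of this sum. It was the only 1 of the 10 that passed, and their median was 0.49 under DSS in WT and 0.55 for KO against WT untreated. Of 7 ileum-type genes tested, Fabp2 fell under DSS in WT (-2.20) and in KO (-1.27), and Reg3g, an antimicrobial lectin, was lower in KO untreated (-1.69).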
